A study of Homo sapiens with 12 samples.

Results

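The genes described here encode heat shock proteins and their DNAJ and BAG co-chaperones. A probe set was taken when the platform annotation gave it a single gene whose symbol starts with HSPA or HSPB and a digit, with HSP90A, or with DNAJA, DNAJB or DNAJC and a digit, or is HSPH1, HSPD1, HSPE1, BAG1 to BAG6, HSF1, ST13 or STIP1. The endoplasmic reticulum chaperones HSPA5 and HSP90B1 were left out. This gave 99 probe sets of 59 genes, out of 22277 probe sets and 11963 genes that had at least 1 single-gene probe set. The rule reads names and not location, so it also took genes whose products work in mitochondria (8 genes) or in the endoplasmic reticulum (8 genes). The rule itself uses no measured value, but it was set with earlier results of these data known. HSPA1A, HSPA1B and HSPA8 have only probe sets that the annotation gives to several genes, and are described apart.

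HSP70 proteins bind exposed hydrophobic stretches of other proteins and hold or release them as ATP is hydrolysed. DNAJ proteins bring substrates to HSP70 and start hydrolysis, while most BAG proteins and HSP110 exchange the nucleotide, and STIP1 passes clients on to HSP90. Small heat shock proteins hold unfolded proteins without ATP, and HSF1 is the transcription factor that switches on many of these genes when proteins misfold.

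Messenger RNA that came down with eIF4E, which holds the 5' cap of messengers when translation starts, was measured on Affymetrix arrays in MDA-MB-231, a human triple-negative breast cancer line. The 4 groups of 3 arrays were IgG from untreated cells, IgG from cells given 2 Gy of X-rays 6 h earlier, and the eIF4E antibody from untreated and from irradiated cells. Every group came from this line and from the same kind of immunoprecipitation kit. The design text calls the replicates biological, and nothing in the sources used here says whether they were separate cultures or days. Arrays of the RNA before precipitation were not analysed here, so a higher level in the cell and a larger share bound to eIF4E cannot be told apart.

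Each array carries 1 trimmed mean, 500.2, so every difference below is set against the bulk of the signal on that array. The arrays of both antibodies also stood apart in control probe sets: with IgG the Alu repeat gave a signal of 36876 to 53246, against 13482 to 18476 for eIF4E, and actin's 3' to 5' ratio was 2.96 to 5.38 against 1.33 to 1.53 (exact two-sided permutation test, p = 0.00216 for each, the smallest that 6 arrays against 6 allow). Hybridization controls were 6.08-fold brighter with IgG. These measures split the arrays by antibody, and their part in the antibody differences was not tested. In the ratio of the controls bioB to bioC, the 4 arrays numbered 1 (0.368 to 0.443) were far above the other arrays (0.0284 to 0.0496). Of the markers of the line, VIM, CD44, MSN, CAV1 and AXL were bright on every array (1496.9 or above), while SPARC was not (4.4 to 64.5). ESR1, PGR and CDH1 stayed at or below 60.9, and ERBB2 (179.9 to 420) and GATA3 (602.7 to 1466) gave signal although they had been listed as low in this line. Markers of liver, blood, nerve and muscle stayed at or below 77.5.

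Of the 59 genes, 49 were bright enough to be tested, at a mean signal of at least 57.4, which is the 40th percentile of all genes. The other 10 were HSPA1L, HSPA6, HSPA12A, HSPB2, HSPB3, HSPB6, HSPB7, DNAJC12, DNAJC22 and DNAJC28. None of their 12 probe sets exceeded 105 on any array, and the median of HSPA6, the strictly inducible HSP70, was 34.1 and 35.5 in its 2 probe sets. Just outside the limit lay DNAJC28 (mean signal 48.1), DNAJC22 (36.5) and HSPA1L (36.3). Just inside it lay HSPA2 (58.1), HSPB8 (65.1) and DNAJA4 (79.6).

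The promoters of 5 genes hold the binding motif of HSF1 and are shown because both HSP90 genes and HSPD1, described below, are among them. The search took 3 units in alternation, GAA, any 2 bases, TTC, any 2 bases, GAA, or TTC, any 2 bases, GAA, any 2 bases, TTC. These forms together cover both strands and can overlap, and were looked for in the 250 bases before each RefSeq start of GRCh38.p14. The match is printed in capitals, 5′ to 3′ along the gene's strand.
HSP90AA1, chr14:102087112-102087140, minus strand: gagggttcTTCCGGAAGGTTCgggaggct
HSP90AB1, first match, chr6:44247770-44247798, plus strand: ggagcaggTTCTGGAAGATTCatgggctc
HSP90AB1, second match, chr6:44247823-44247851, plus strand: tgagattgTTCTGGAAGCTTCtggattct
HSPD1, chr2:197500062-197500090, minus strand: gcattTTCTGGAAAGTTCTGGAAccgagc
DNAJB6, chr7:157336848-157336910, plus strand: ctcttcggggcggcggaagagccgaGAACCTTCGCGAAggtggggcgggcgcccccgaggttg
HSPA6, chr1:161524441-161524503, plus strand: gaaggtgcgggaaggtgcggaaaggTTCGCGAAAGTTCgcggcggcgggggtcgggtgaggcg
A promoter was matched for 51 of the 59 genes, and 5 of these (9.8%) held the motif, against 152 of 27305 genes (0.557%) in the whole table. The shorter form of 2 units, GAA and TTC in either order with any 2 bases between, was found in 17 members (33.3%) and in 14% of all genes. A match is a description of these letters and does not show that HSF1 was bound. HSP90AA1, HSP90AB1 and HSPD1 were lower with eIF4E, DNAJB6 did not pass the test and HSPA6 was too dim to be tested. Of the members with only the shorter form, 3 were higher, 1 was lower, 5 did not pass and 3 were too dim. Among all genes tested 38.2% were lower and 32.5% higher. Whether the motif goes with a direction was not tested. The matches in HSP90AA1, HSP90AB1 and HSPD1 lie inside the span of their own gene, downstream of another start, and are therefore shown with short flanks.

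Setting eIF4E against IgG asks which messengers were recovered with eIF4E beyond the background of the precipitation. Over both treatments the members went both ways. HSPB1, the small heat shock protein HSP27, was the highest, and HSPH1, an HSP110 exchange factor, and HSP90AA1, the inducible HSP90, were the lowest. Both HSP90 genes, 5 of 7 HSP70 genes and the chaperonin HSPD1 were lower with eIF4E. In limma's model with Benjamini-Hochberg adjustment, 31 of 49 members (63.3%) passed an adjusted p of 0.05, where 70.7% of all genes tested did. Of them 12 were higher and 19 lower with eIF4E, against 32.5% and 38.2% of all genes. The median log2 difference was -0.09 over the members and -0.07 over all genes. IgG and eIF4E arrays were fully separate, with no overlap in signal, in 26 members (53.1%), where 49.9% of all genes showed this; both shares lay near those of all genes. A difference of at least 1 log2 unit was reached by 11 of the called members, 3 higher and 8 lower, and by 26.2% of all genes, 12.3% higher and 13.9% lower.

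**Figure D1:**
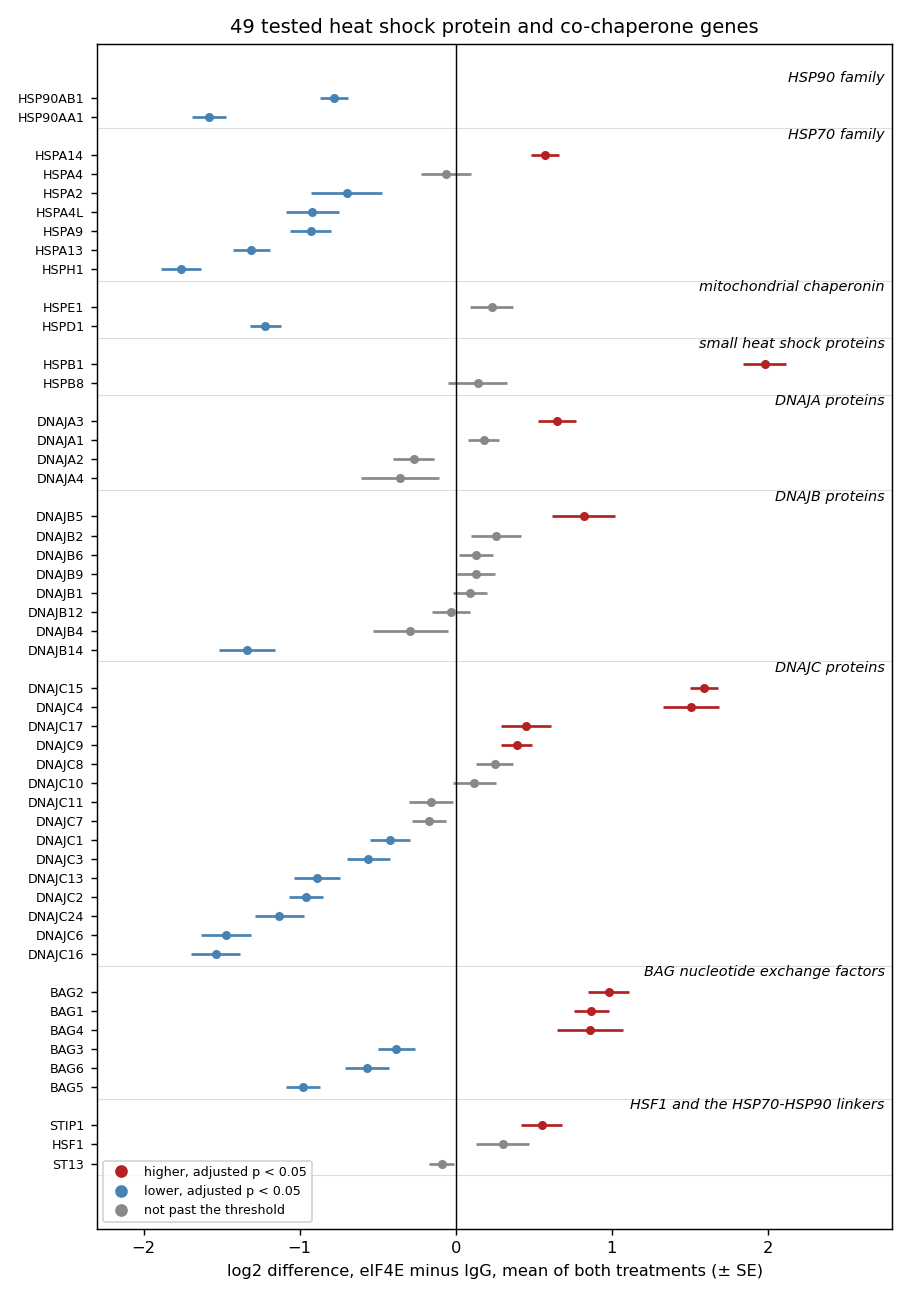
The log2 difference in signal between eIF4E and IgG precipitates is shown for each of the 49 tested genes, as the mean of untreated and irradiated cells with its SE (bars), grouped by family. Red genes were higher and blue genes lower past the adjusted threshold, and grey genes did not pass. HSPB1 lies farthest right at 1.98 and HSPH1 farthest left at -1.76, and the HSP90 family lies wholly on the left.

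Both members of the HSP90 family, ATP-driven chaperones of kinases and steroid receptors, were lower with eIF4E. The signal of HSP90AA1 was 36188, 40003 and 33403 in untreated IgG and 43259, 37744 and 28714 in irradiated IgG. With eIF4E it was 12874, 10552 and 11147 in untreated and 14607, 11359 and 12449 in irradiated cells. The lowest IgG array thus lay well above the highest eIF4E array. The log2 difference was -1.58 ± 0.11 (SE, 6 arrays a side, limma adjusted p = 2.81e-09), and the 4 probe sets of the gene gave -1.59 to -1.37. HSP90AB1, the constitutive form, was at 11299, 11692 and 12049 in untreated IgG and 16784, 15115 and 12215 in irradiated IgG. With eIF4E it was at 6699, 7748 and 6929 and at 8205, 8119 and 8090. The groups of both antibodies did not overlap, and the difference was -0.78 ± 0.09 (limma adjusted p = 8.95e-07). A second probe set of HSP90AB1 gave -0.06 (adjusted p = 0.65), so the size depended on the probe set.

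**Figure D2:**
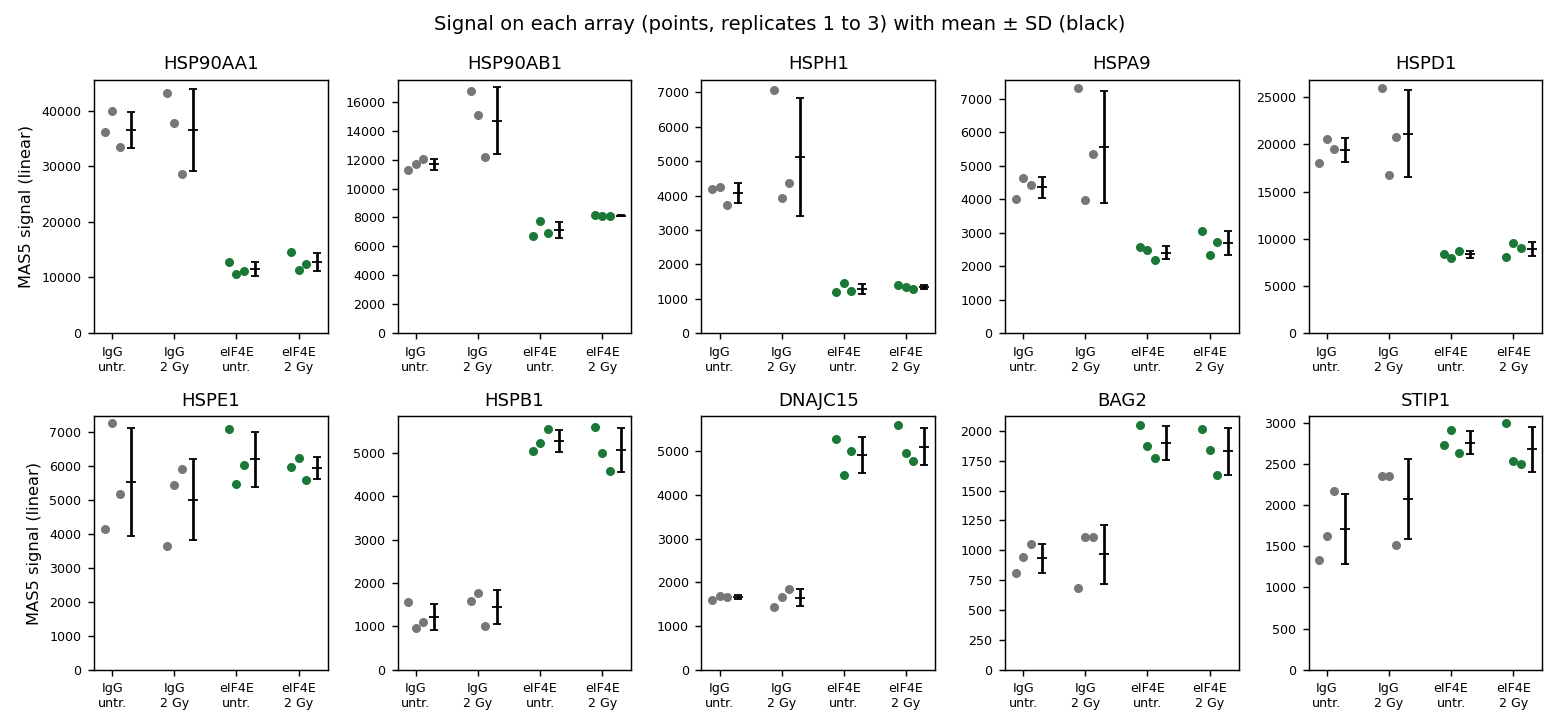
The deposited MAS5 signal on a linear scale from 0 is plotted for each of the 12 arrays in 10 genes, grey for IgG and green for eIF4E, with the mean ± SD of each group of 3 in black. HSP90AA1, HSP90AB1, HSPH1, HSPA9 and HSPD1 are lower with eIF4E on every array, HSPB1, DNAJC15, BAG2 and STIP1 are higher on every array, and HSPE1 overlaps.

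In the HSP70 family 6 of 7 tested genes passed, 5 lower and 1 higher, with a median of -0.92. Of all genes 70.7% passed, 38.2% lower and 32.5% higher, with a median of -0.07. HSPH1 was at 4194, 4261 and 3737 in untreated IgG, and at 7071, 3925 and 4361 in irradiated IgG. The eIF4E arrays gave 1187, 1446 and 1230 in untreated and 1394, 1345 and 1291 in irradiated cells. No eIF4E array came near an IgG array, and 1 irradiated IgG array, replicate 1, stood above the rest. The difference was -1.76 ± 0.13 (limma adjusted p = 4.87e-09), and a second probe set gave -1.49. Leaving out replicate 1 of every group changed it to -1.60. HSPA13, a microsomal HSP70 without a substrate-binding domain, was at 1264, 1218 and 1235 in untreated and 1603, 1027 and 1221 in irradiated IgG. Its eIF4E values were 435, 564 and 438 and then 594, 524 and 443. Its arrays were fully separate at -1.31 ± 0.12 (adjusted p = 8.82e-08, limma), but its other probe set was at -0.18 (adjusted p = 0.321).

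HSPA9, the mitochondrial HSP70 mortalin, was also lower. Its signals were 4021, 4623 and 4420 in untreated and 7318, 3990 and 5356 in irradiated IgG, and 2560, 2468 and 2193 in untreated and 3038, 2320 and 2717 in irradiated eIF4E precipitates. The antibodies did not overlap, the difference was -0.93 ± 0.13 (limma adjusted p = 5.99e-06), and all 3 probe sets were called lower (-0.93 to -0.63). HSPA4L, a testis-rich relative of HSP110, was at -0.92 ± 0.17. HSPA2, a testis HSP70 near the signal limit, was at -0.70 ± 0.23 (limma adjusted p = 0.0111) and did not keep its call without replicate 1 of every group (-0.62, adjusted p = 0.0644). HSPA14, which works with DNAJC2 at the ribosome, was the 1 member of the family that was higher. It ran from 1720 to 2005 with IgG and from 2294 to 2945 with eIF4E, a difference of 0.57 ± 0.09 (limma adjusted p = 3.83e-05).

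HSPA4, another HSP110 exchange factor, had probe sets called in opposite directions. The probe set that stood for the gene gave 890, 1342 and 1680 in untreated and 797, 1465 and 1433 in irradiated IgG. With eIF4E it gave 1197, 1216 and 1211 and then 1177, 1203 and 1062. The eIF4E arrays lay inside the range of the IgG arrays. Its difference of -0.06 ± 0.16 (limma adjusted p = 0.763) did not pass. 2 other probe sets were at -1.39 and -1.13 (adjusted p = 8.2e-07 and 2.91e-08) and the last at 0.57 (adjusted p = 0.00885). The direction of the main value turned under median centring (0.03) and without untreated IgG replicate 3 (0.05), irradiated IgG replicate 2 (0.02) or irradiated IgG replicate 3 (0.01), and without replicate 1 of every group it passed at -0.33 (adjusted p = 0.00916). As the average of its probe sets HSPA4 was lower at -0.50 (limma adjusted p = 3.30e-04). No single direction can be given for HSPA4.

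The 8 probe sets shared with other genes were compared by an exact two-sided permutation test of 6 arrays against 6, adjusted over these 8. Those annotated to HSPA1A and HSPA1B together, the stress-induced HSP70 pair whose copies are nearly identical, were lower with eIF4E by -1.58 and -0.75 (log2, exact p = 0.00216, adjusted 0.00247 for each). A probe set that adds HSPA1L to that pair was at -1.08 with the same p. The brightest array of the first was 7854 with IgG, and its eIF4E arrays ran from 561 to 1425. Of 3 probe sets annotated to HSPA8, the constitutive HSP70, and to small nucleolar RNAs in its introns, 2 were at -1.02 and -0.77 without overlap, and the third was at 0.12 (exact p = 0.418). The signal of one gene or the other cannot be separated on these probe sets. For comparison, arrays of both antibodies did not overlap in 48.6% of all single-gene probe sets tested.

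HSPD1 and HSPE1 encode HSP60 and HSP10, the barrel and the lid of the mitochondrial chaperonin. They stand head to head on chromosome 2, where the HSPE1 start at 197500379 lies 105 and 539 bases from the RefSeq starts of HSPD1, on opposite strands. HSPD1 was at 18026, 20612 and 19541 in untreated and 25960, 16710 and 20781 in irradiated IgG, and at 8348, 7974 and 8665 and then 8076, 9518 and 9031 with eIF4E. Its arrays were fully separate at -1.22 ± 0.10 (limma adjusted p = 2.18e-08), and the second probe set was at -0.67. HSPE1 was at 4154, 7292 and 5195 in untreated and 3662, 5448 and 5926 in irradiated IgG, and at 7098, 5484 and 6039 and then 5970, 6252 and 5600 with eIF4E. These arrays overlapped. The HSPE1 difference of 0.23 ± 0.14 did not pass (limma adjusted p = 0.148), passed at 0.34 without untreated IgG replicate 2 (adjusted p = 0.0305), and was -0.02 without replicate 1 of every group. The difference between HSPD1 and HSPE1 was not tested.

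Of the 6 small heat shock proteins only HSPB1 and HSPB8 were bright enough to be tested. HSPB1 was at 1552, 974 and 1105 in untreated IgG and 1580, 1771 and 1015 in irradiated IgG. The signals with eIF4E were 5044, 5222 and 5544 and then 5609, 4999 and 4587, so the lowest eIF4E array was above the highest IgG array. The difference of 1.98 ± 0.14 (limma adjusted p = 3.52e-09) was the largest among the members in either direction. It was 2.13 in untreated and 1.82 in irradiated cells. HSPB8, which works with BAG3 in the removal of aggregates, was at 0.14 ± 0.19 with overlapping arrays (adjusted p = 0.516, limma).

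DNAJA and DNAJB proteins are the classes that deliver unfolded substrates to HSP70. In each class 25% of the tested genes passed, against 70.7% of all genes. These shares depend on the probe set chosen, since DNAJA1, DNAJB1 and DNAJB12 did not pass but had some other probe set called. DNAJA3, the mitochondrial form, was higher with eIF4E at 0.65 ± 0.12 (limma adjusted p = 9.31e-05), with 336 to 515 in IgG and 600 to 715 in eIF4E precipitates. DNAJA1, the farnesylated cytosolic form, was at 4726, 4581 and 4726 in untreated and 5540, 3896 and 5493 in irradiated IgG. eIF4E precipitates gave 5098, 5561 and 4900 and then 6335, 5378 and 5427. Its arrays overlapped at 0.18 ± 0.10 (adjusted p = 0.121), and its second probe set was called lower at -0.52 (limma adjusted p = 2.33e-04). The value passed at 0.27 under median centring (adjusted p = 0.0288) and was -0.17 as the mean of both probe sets. DNAJA2 was at -0.27 and DNAJA4 at -0.36, both short of the threshold. DNAJA2 passed without replicate 1 of untreated IgG (-0.37, limma adjusted p = 0.0109), of irradiated IgG (-0.32, adjusted p = 0.0441) or of every group (-0.44, adjusted p = 0.00407), and with array quality weights (-0.39, adjusted p = 0.00475).

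Among 8 DNAJB genes, 1 was higher and 1 lower, where 32.5% and 38.2% of all genes were. DNAJB14, anchored in the membrane of the endoplasmic reticulum, was at 419, 702 and 773 in untreated and 477, 585 and 566 in irradiated IgG. With eIF4E it was at 174, 269 and 231 and at 153, 311 and 200. The difference was -1.34 ± 0.18 without overlap (limma adjusted p = 4.53e-06). DNAJB5 was higher at 0.82 ± 0.20 (limma adjusted p = 0.00165), with 49.5 to 117 in IgG and 122 to 183 in eIF4E precipitates. DNAJB1, the stress-induced HSP40 and partner of HSPA1A, was at 2093, 1450 and 1547 in untreated and 1491, 1907 and 1465 in irradiated IgG. The eIF4E arrays gave 1694, 1828 and 1906 and then 1827, 1638 and 1648, all inside the range of the IgG arrays. Its difference was 0.09 ± 0.11 (limma adjusted p = 0.453), whereas a second, separate probe set was higher at 1.02 ± 0.12 (adjusted p = 1.22e-06). Taken as the mean of both, DNAJB1 was at 0.56 (adjusted p = 2.29e-04). DNAJB2, DNAJB4, DNAJB6, DNAJB9 and DNAJB12 did not pass and lay between -0.29 and 0.26. The probe sets annotated to both DNAJB6 and TMEM135, outside this test, were higher with eIF4E at 0.86 and 1.77 without overlap, which 48.6% of all single-gene probe sets tested showed in either direction. DNAJB12 sat at -0.03 and was above 0 under quantile normalization (0.08) and median centring (0.06).

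DNAJC proteins share only the J domain and serve many places in the cell. Of 15 tested, 4 were higher, 7 lower and 4 did not pass, with a median of -0.17. The share that passed, 73.3%, lay near the 70.7% of all genes. DNAJC15, a J protein of the inner mitochondrial membrane, was at 1608, 1693 and 1669 in untreated and 1442, 1673 and 1837 in irradiated IgG. Its eIF4E values were 5293, 4468 and 5003 and then 5592, 4956 and 4774. The eIF4E arrays all lay far above the IgG arrays, and 1.59 ± 0.09 (limma adjusted p = 6.73e-10) had the smallest adjusted p among the members. DNAJC4, a small J protein also assigned to mitochondria, was at 58.2, 55.3 and 61.1 in untreated and 43.1, 47.9 and 61 in irradiated IgG. The signals with eIF4E were 249, 175 and 165 and then 232, 144 and 156. The groups were separate at 1.51 ± 0.18 (limma adjusted p = 1.05e-06), and another probe set at 0.36 did not pass. Its IgG signals lay near the signal limit, so the size of its difference depends on the added constant of 16.

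The lower DNAJC genes were led by DNAJC16, a membrane protein of the endoplasmic reticulum, and DNAJC6, the auxilin that strips clathrin from vesicles. DNAJC16 was at 405, 377 and 344 in untreated and 480, 308 and 310 in irradiated IgG. eIF4E precipitates gave 105, 134 and 106 and then 162, 97 and 102. It was fully separate at -1.54 ± 0.16 (limma adjusted p = 2.25e-07), with a second probe set at -1.30. DNAJC6 was at 713, 819 and 947 in untreated and 863, 905 and 1237 in irradiated IgG. With eIF4E it was at 230, 373 and 386 and at 226, 358 and 358. The arrays of both antibodies were separate at -1.47 ± 0.16 (limma adjusted p = 3.63e-07). DNAJC24, a factor in the diphthamide modification of elongation factor EF2, was at -1.13, and DNAJC2, the ribosome-bound partner of HSPA14, at -0.96 ± 0.11. HSPA14 and DNAJC2, which form one complex, thus lay on opposite sides of 0. DNAJC13, a J protein of endosomes, was at -0.89, DNAJC3, an inhibitor of the kinase PERK, at -0.56, and DNAJC1 at -0.42. DNAJC1 lost its call under quantile normalization (-0.27, limma adjusted p = 0.076). On the higher side DNAJC17 was at 0.45 and DNAJC9, a histone chaperone, at 0.39. DNAJC8, a splicing-associated J protein, was at 0.25 and did not pass. It did pass under quantile normalization (0.33, limma adjusted p = 0.0367), median centring (0.34, 0.0209) and array quality weights (0.25, 0.0339). It also passed without irradiated IgG replicate 1 or irradiated eIF4E replicate 2 (0.31 each) and without replicate 1 of every group (0.26, limma adjusted p = 0.0496). DNAJC9 lost its call when its probe sets were averaged (0.21, adjusted p = 0.0661).

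All 6 BAG genes, most of whose proteins release nucleotide from HSP70, passed the test, 3 in each direction, where 70.7% of all genes passed. BAG2, which restrains the ubiquitin ligase STUB1, was at 806, 944 and 1051 in untreated and 682, 1107 and 1115 in irradiated IgG. The eIF4E arrays gave 2052, 1870 and 1774 and then 2017, 1839 and 1627, a difference of 0.98 ± 0.13 (limma adjusted p = 3.43e-06). BAG1, an HSP70 partner that binds the proteasome, was at 1094, 1506 and 1120 in untreated and 1143, 907 and 1138 in irradiated IgG. Its eIF4E values were 2188, 2021 and 2239 and then 1956, 2228 and 1975, a difference of 0.87 ± 0.11 (limma adjusted p = 1.68e-06), and a second probe set gave 1.29. BAG4, a silencer of death receptors, was dim, at 47.4, 78.1 and 64.7 in untreated and 38.5, 37 and 86.1 in irradiated IgG. The signals with eIF4E were 110, 104 and 119 and then 150, 111 and 103, a difference of 0.86 ± 0.21 (limma adjusted p = 0.00144). The arrays of each of these 3 genes were fully separate.

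BAG5, BAG6 and BAG3 were lower with eIF4E. BAG5 was at -0.98 ± 0.11 with 1477 to 2041 in IgG and 772 to 1074 in eIF4E precipitates. BAG6, which guides tail-anchored proteins to the membrane, was at 2823, 2611 and 2335 in untreated and 4419, 3804 and 2357 in irradiated IgG, and at 1551, 2172 and 2365 and then 1868, 1869 and 2224 with eIF4E. The arrays overlapped, at -0.57 ± 0.14. The 2 other probe sets of BAG6, which carry the suffix _x_at and so did not stand for the gene, were at -1.17 and -1.06, and all 3 were called lower. BAG3, the stress-induced member that leads to selective autophagy, was at 2072, 2289 and 1975 in untreated and 2913, 2693 and 1955 in irradiated IgG. eIF4E precipitates gave 1738, 1882 and 1751 and then 1999, 1384 and 1810. Its arrays overlapped, and -0.38 ± 0.12 was the smallest called difference of a BAG gene (limma adjusted p = 0.00777).

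STIP1, which links HSP70 to HSP90, was at 1337, 1626 and 2175 in untreated and 2352, 2354 and 1515 in irradiated IgG, and at 2725, 2909 and 2633 and then 2989, 2535 and 2502 with eIF4E. The antibodies did not overlap, 0.55 ± 0.13 (limma adjusted p = 0.00149), and a second probe set was at 0.83. ST13, which steadies the HSP70 complex, was at 2903, 2776 and 2660 in untreated and 2730, 2748 and 2887 in irradiated IgG. With eIF4E it was at 2658, 2378 and 2473 and at 2842, 2626 and 2690, with overlap at -0.09 ± 0.08 (limma adjusted p = 0.318). As the average of its probe sets ST13 was lower at -0.30 (limma adjusted p = 0.00917). A further ST13 probe set was called lower at -0.83 and another was at 0.02. HSF1 was dim, at 140, 219 and 172 in untreated and 286, 165 and 163 in irradiated IgG, and at 242, 304 and 273 and then 236, 153 and 215 with eIF4E. Over both treatments its arrays overlapped and 0.30 ± 0.17 did not pass (limma adjusted p = 0.122). HSF1 passed under quantile normalization at 0.43 (limma adjusted p = 0.0309) and under median centring at 0.39 (0.044). Array quality weights gave 0.33 (limma adjusted p = 0.0456) and the average of its probe sets 0.45 (0.0426). Omitting irradiated IgG replicate 1 gave 0.42 (limma adjusted p = 0.0222).

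By location, 5 of 8 tested genes of the endoplasmic reticulum were lower with eIF4E and 0 higher (median -0.49), and the remaining 3 did not pass. Of 7 tested mitochondrial genes, 3 were higher (DNAJA3, DNAJC4 and DNAJC15) and 2 lower (HSPA9 and HSPD1), with a median of 0.23. Members known from textbooks as induced by HSF1 had 2 higher and 6 lower of 12 tested (median -0.34), and the other 37 members had 10 higher and 13 lower (median -0.06). In the textbook list the 2 higher were HSPB1 and STIP1. The 6 lower were HSP90AA1, HSPH1, HSPA4L, HSPD1, BAG3 and HSP90AB1, which is described above as the constitutive form. These counts were not tested against one another, and 38.2% of all genes were lower and 32.5% higher.

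Other co-chaperones and regulators of HSP90 and HSP70, outside the naming rule, were counted for context. Of 30 genes listed, 20 were tested and 16 passed, 12 higher and 4 lower, with a median of 0.60. Of all genes 70.7% passed, 32.5% higher and 38.2% lower, with a median of -0.07. STUB1, the ubiquitin ligase CHIP, had the highest value at 1.63 ± 0.13, with 875 to 1738 in IgG and 3872 to 4683 in eIF4E precipitates, followed by the phosphatase PPP5C (1.59 ± 0.15) and HSBP1, a negative regulator of HSF1 (1.48 ± 0.12). UNC45A, a myosin chaperone, was lowest at -1.04 ± 0.17, followed by RPAP3 (-0.54 ± 0.15) and NUDC (-0.28 ± 0.11). Between the STUB1 arrays of both antibodies there was no overlap. The STUB1 value came from a probe set with the suffix _x_at, since the gene had no other of its own.

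Probe sets of one gene were set side by side to see whether a direction depended on the probe set. They were read on the same arrays, so their agreement cannot separate a gene's difference from one shared by a whole array. When all 81 bright member probe sets were tested singly, 53 passed (18 higher, 35 lower), where 69.8% of all probe sets tested did, 31.5% higher and 38.3% lower. For 22 member genes with 2 or more such probe sets, 9 had all of them called in one direction (40.9%), 10 had some called (45.5%) and 2 had none (9.09%). Over 2317 such genes in all, the shares were 41.6%, 37.8% and 10.5%. HSPA4 was the 1 with calls in opposite directions (4.55%, against 10.1%). The direction of HSP90AA1, HSPH1, HSPA9, HSPD1, DNAJC16, BAG1, BAG5, BAG6 and STIP1 did not depend on the probe set. A gene's lowest and highest probe set differed by 1.96 for HSPA4, 1.15 for DNAJC4, 1.13 for HSPA13 and 0.93 for DNAJB1.

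**Figure D3:**
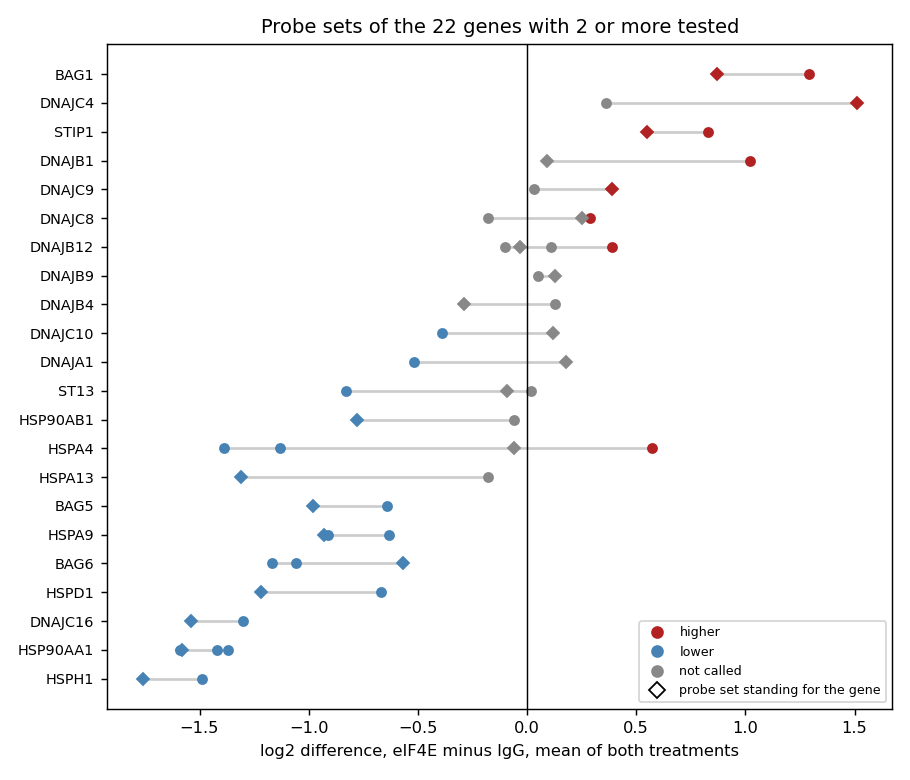
Each point is the log2 difference of eIF4E against IgG for 1 probe set of the 22 genes with 2 or more tested, and a diamond marks the probe set that stands for the gene. The 4 points of HSP90AA1 fall between -1.59 and -1.37, while those of HSPA4 run from -1.39 to 0.57.

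In untreated cells alone, 25 of 49 members passed in limma's model (10 higher, 15 lower), where 58.9% of all genes did (27.2% higher, 31.7% lower), and arrays did not overlap in 33 (67.3%, against 66.7%). In irradiated cells 28 passed (11 higher, 17 lower), against 59.5% of all genes (27.2% higher, 32.3% lower), and 29 did not overlap (59.2%, against 62.4%). The 22 members called in both had the same direction in both. HSF1, STIP1 and DNAJC3 passed only in untreated cells, and BAG3, BAG4, BAG6, DNAJC1, DNAJC9 and DNAJC17 only in irradiated cells. These are not shown to differ between treatments, since the test of that difference gave 0 members past the threshold (limma adjusted p of 0.999 or above).

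HSF1 was at 0.60 ± 0.24 in untreated cells (limma adjusted p = 0.0404) and 0.0021 ± 0.24 in irradiated cells, a difference of -0.60 with an unadjusted p of 0.0962 and an adjusted p of 0.999. Its call in untreated cells was lost without a filter on dim genes (limma adjusted p = 0.0827) and when its probe sets were averaged (0.125). It was also lost without untreated IgG replicate 1 (0.45, adjusted p = 0.144) or 3 (0.59, 0.0804), untreated eIF4E replicate 2 (0.52, 0.124) or 3 (0.59, 0.0875) or irradiated eIF4E replicate 3 (0.60, 0.0502). BAG3 lost its call in irradiated cells without irradiated eIF4E replicate 2 (-0.38, limma adjusted p = 0.0744).

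Single arrays, the choice of probe set and other processing choices moved further calls across the threshold. In irradiated cells DNAJC1 lost its call without irradiated IgG replicate 1 or 2, untreated eIF4E replicate 2 or 3, or irradiated eIF4E replicate 2 or 3 (-0.48 to -0.29). Its call was also lost under quantile normalization (-0.26), median centring (-0.37) and array quality weights (-0.39). The same held without a filter, in a fit of only the groups compared, and without replicate 1 of every group. DNAJC17 lost its call without irradiated IgG replicate 2 or 3 or irradiated eIF4E replicate 1 (0.49 to 0.59), and without a filter (0.61). In irradiated cells BAG4 also lost its call without replicate 1 of every group (0.74, limma adjusted p = 0.085). DNAJC9 lost it there as the mean of its probe sets (0.29, limma adjusted p = 0.0854). DNAJC3 passed in irradiated cells without irradiated IgG replicate 2 (-0.52), and STIP1 did without irradiated IgG replicate 1 (0.49). DNAJC3 also passed there with array quality weights (-0.48), and at -0.44 without a variance trend or when probe sets were averaged. STIP1 also passed there under median centring (0.46), with array quality weights (0.44) and as the mean of its probe sets (0.58, limma adjusted p = 0.0064). In untreated cells BAG4 passed without untreated IgG replicate 2 (0.83) or any irradiated IgG array (0.69), and DNAJC9 without irradiated IgG replicate 1 (0.27). Under quantile normalization BAG4 also passed there (0.85), and under median centring both BAG4 (0.81) and DNAJC9 (0.38) did. BAG6 passed there when its probe sets were averaged (-0.74, limma adjusted p = 0.00502). HSPA2 passed there without irradiated IgG replicate 1 or 2 (-0.76) or untreated eIF4E replicate 3 (-0.91). DNAJC1 passed in untreated cells with array quality weights (-0.51), in a fit of only the groups compared (-0.40) and without replicate 1 of every group (-0.50).

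The comparison of irradiated with untreated cells asks whether 2 Gy changed the recovery of these messengers after 6 h. In the eIF4E precipitates 0 of 49 members passed, as did 0 of all 7178 genes, and none of the members reached an unadjusted p of 0.05, which 1.14% of all genes did (limma). The model shares 1 estimate of the spread over the 4 groups. Replicates of a group correlated at 0.956 to 0.969 with IgG and at 0.977 to 0.986 with eIF4E. A p or interval may thus be too large with eIF4E and too small with IgG, which was not tested. Member differences ran from -0.43 (HSF1) to 0.27 (DNAJA4) with a median of -0.01. Arrays of both treatments did not overlap for 4 members (8.16%, against 9.4% of all genes). The 95% intervals of 47 members lay within 1 log2 unit of 0; for a dim gene this scale puts a doubling at less than 1 unit. Intervals of the other 2, DNAJA4 and DNAJB4, reached 1.03 and -1.04.

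With IgG, 0 members passed and 2 reached an unadjusted p of 0.05, against 6.62% of all genes (limma). HSP90AB1 was at 0.32 (95% interval 0.05 to 0.59) and DNAJC24 at -0.56 (-1.03 to -0.09), each with a limma adjusted p of 0.643. The IgG signals of DNAJC24 were 979, 1034 and 1190 in untreated and 568, 1029 and 633 in irradiated cells, which overlapped at 1 array, and with eIF4E they were 391, 416 and 341 and then 419, 522 and 292. The 3 irradiated arrays of HSP90AB1 lay above the 3 untreated ones in both antibodies, where arrays did not overlap for 8.68% of all genes with IgG. With eIF4E the HSP90AB1 difference was 0.19 (-0.08 to 0.46, limma unadjusted p = 0.146), and the value with IgG fell to 0.22 without irradiated IgG replicate 1. These values are of the probe set that stood for the gene. In its other probe set the treatments overlapped in both antibodies. The means there were 2874 untreated and 3909 irradiated with IgG, and 3213 and 3199 with eIF4E. HSF1 with eIF4E was at -0.43 (-0.93 to 0.08, limma unadjusted p = 0.0931, adjusted p = 1), and its 3 irradiated arrays lay below the 3 untreated ones.

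The next smallest p with IgG belonged to BAG6 at 0.40, HSPA9 at 0.31 and HSPH1 at 0.29 (limma adjusted p = 0.731, 0.734 and 0.734). These values were smaller without irradiated IgG replicate 1: BAG6 was at 0.21, HSPA9 at 0.09 and HSPH1 at 0.03. That array held the highest IgG signal in 12 of 49 members (24.5%) and in 23.7% of all genes. Untreated IgG replicate 1 was highest in 14 members (28.6%, against 17.6% of all genes). Among eIF4E arrays, irradiated replicate 1 was highest in 19 members (38.8%, against 22.6%). Next to HSF1 and HSP90AB1, the smallest p with eIF4E belonged to DNAJB6 at -0.22, HSPA4L at -0.33 and DNAJB2 at -0.29 (limma adjusted p = 1 for each). In eIF4E precipitates DNAJB6 was at 3162, 2606 and 2590 in untreated and 2616, 2353 and 2199 in irradiated cells, with overlap. HSPA4L was at 206, 209 and 198 and then 135, 196 and 152, and DNAJB2 at 158, 140 and 143 and then 128, 112 and 114, both without overlap.

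For the difference between both irradiation effects, 0 members passed and 0 reached an unadjusted p of 0.05, against 3.01% of all genes (limma). Values ran from -0.60 (HSF1) to 0.62 (DNAJC24, unadjusted p = 0.0644), with DNAJB12 (IgG 487, 491 and 466 in untreated and 442, 723 and 612 in irradiated cells; eIF4E 582, 602 and 487 and then 478, 536 and 438) at -0.46, BAG6 at -0.41 and BAG3 at -0.30 between them. The intervals of 39 members lay within 1 log2 unit of 0.

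**Figure D4:**
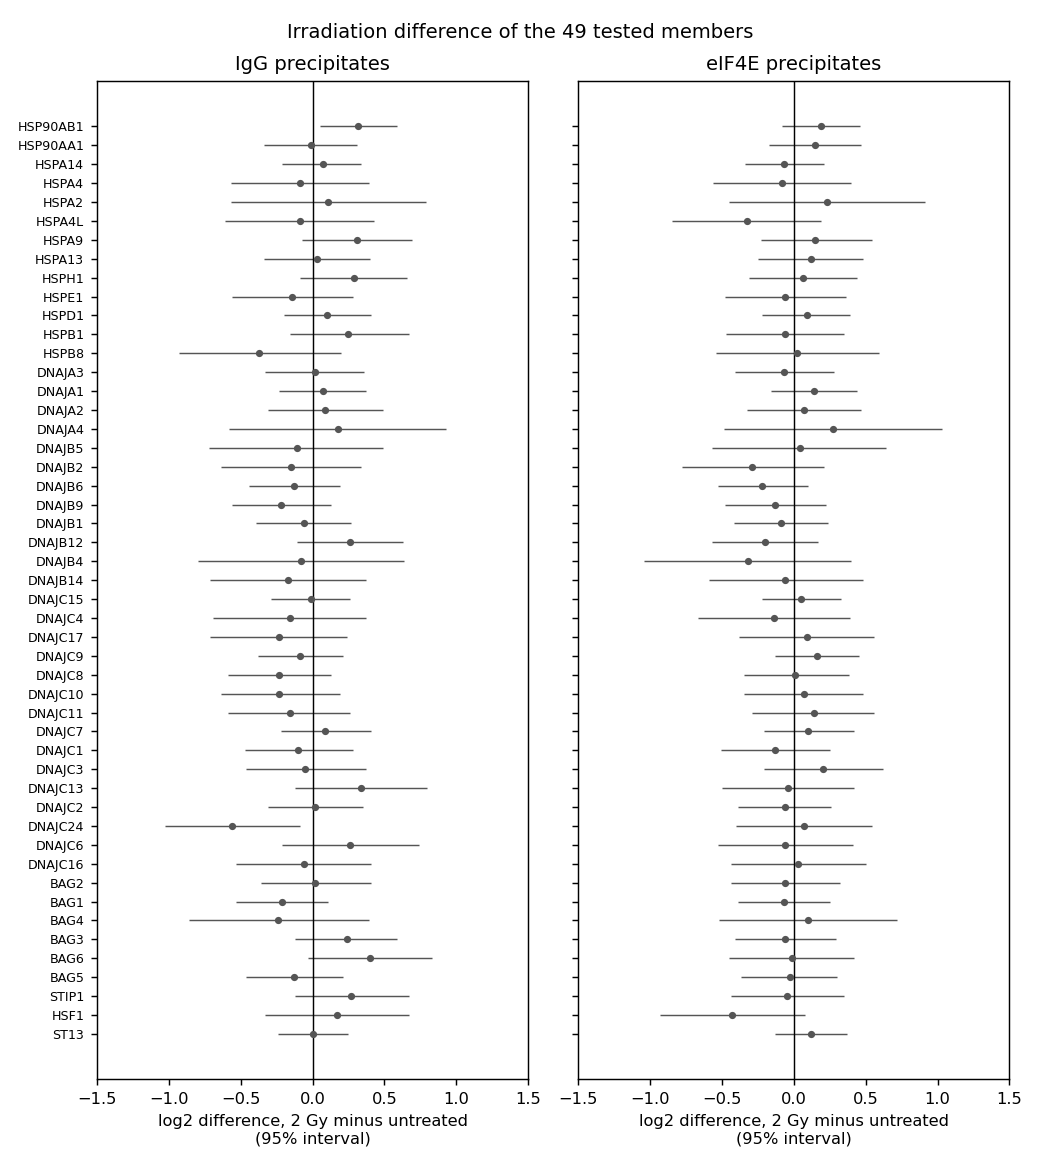
The log2 difference of irradiated against untreated cells is shown with its 95% interval for the 49 members, at left in IgG and at right in eIF4E precipitates. All points lie between -0.56 and 0.40. With IgG the intervals of HSP90AB1 and DNAJC24 exclude 0 before adjustment, and with eIF4E every interval includes 0.

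The members were also set against the span of their gene, which the naming rule did not use. Across the 49 genes the antibody difference correlated with log span at Pearson r = -0.33 and Spearman rho = -0.27, against -0.46 and -0.47 over 7177 genes. These are correlations across genes on shared arrays, genes are not independent replicates, and no p is given. Median span was 18.4 kb for the 12 higher members, 32.5 kb for the 19 lower members and 27.6 kb for the 18 that did not pass. HSPB1 had the shortest span, 1.62 kb, and the largest positive difference, but DNAJC15 was higher at 90.6 kb and BAG5 lower at 6.11 kb.

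**Figure D5:**
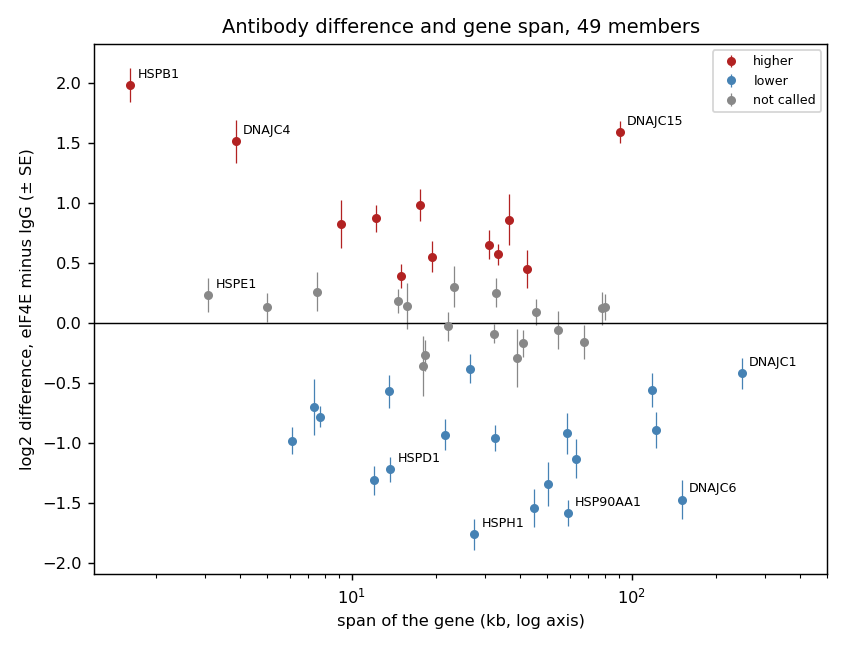
The log2 difference of eIF4E against IgG (± SE) is plotted against the span of each of the 49 genes in kb on a log axis. Higher and lower genes overlap over most of the range, with HSPB1 and DNAJC4 at the short end above 0 and DNAJC1 at the long end below it.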

How the data were processed

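The authors deposited a linear intensity, the signal, for every probe set on each array. Per the submitters' processing notes it was made with MAS5, whose version and settings are not given in the sources used here. All 12 arrays entered as deposited, and 0 pairs of arrays held identical values. Symbols of 19052 of 19064 single-gene probe sets were updated through their gene identifier to RefSeq of GRCh38.p14. The members and gene lists were chosen with earlier results of these data known.

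Each gene was represented by its brightest probe set (_x_at only without another), and genes under the 40th percentile were left out, which kept 7178 genes. The model, 4 means over all 12 arrays, was run on log2(signal + 16) in limma 3.58.1 under R 4.3.3, using lmFit and trended eBayes, with Benjamini-Hochberg adjustment at 0.05. On this scale a dim gene's change comes out too small. All 10566 bright single-gene probe sets were fitted the same way. Errors are SE unless stated. The fit was tested on simulated data.

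Any member may be named. Array values are given for 14 of 16 fixed genes, since HSPA1A and HSPA8 have no probe set of their own, for up to 6 separated genes at either end of the antibody difference, and for the smallest p in each irradiation comparison. Other genes were named after their values were seen. Protein length, which had been planned, was replaced by gene span, since no protein table was used here. Shared replicate numbers were checked by correlating deviations from group means over genes. Untreated and irradiated eIF4E arrays gave 0.374, 0.208 and 0.181, and every other pair of groups had at least 1 number under 0.1. The eIF4E arrays were therefore read as pairs, from the data and not the labels. In every pair of groups the arrays numbered 1 correlated most, and these arrays also stood apart in the bioB to bioC ratio. Whether shared numbers stand for shared cultures or for shared array processing was not tested. The main model held group means only and did not use this pairing. A replicate block was fitted only as an alternative. Alternatives were quantile normalization, median centring, constants of 1 and 64, no filter or the 60th percentile, no trend, array weights, fits of only the arrays compared, a replicate block, probe set means or single probe sets, and omission of arrays. Figures were drawn with matplotlib 3.10.9.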

Additional observations from a re-analysis of the deposited data

Results flagged for a closer look

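A pair of probe sets outside the member list carried a difference although they belong to no gene test. Both are annotated to DNAJB6, a co-chaperone that keeps polyglutamine proteins soluble, and to TMEM135, a membrane protein. The first ran from 1019 to 1932 with IgG and from 2182 to 3271 with eIF4E, a log2 difference of 0.86. The second ran from 547 to 820 and from 2073 to 2921, a difference of 1.77. In each, every eIF4E array lay above every IgG array (exact two-sided permutation test, p = 0.00216, adjusted over 8 probe sets 0.00247). Arrays of both antibodies were also fully separate, in either direction, in 48.6% of all single-gene probe sets tested. The probe set annotated to DNAJB6 alone was at 0.13 and did not pass in limma. Which of both genes gave the signal was not tested.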

How the results depend on the processing

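Of the 31 members called over both treatments, 31 kept direction and call when any 1 array was left out. Under the other alternatives 28 did wherever they had a value, 21 of them under every one; a filter at the 60th percentile left 8 of the 31 untested (BAG4, DNAJB5, DNAJC3, DNAJC4, DNAJC16, DNAJC17, HSPA2 and HSPA4L), and DNAJB5 also had no value as a mean of probe sets. The exceptions were DNAJC1 with quantile normalization (-0.27), DNAJC9 as the mean of its probe sets (0.21) and HSPA2 without replicate 1 of every group (-0.62). Counting probe sets by themselves gave 43, 48 and 53 called in untreated cells, irradiated cells and both, since more features were tested. The replicate block gave 26, 30 and 33 members, adding DNAJB4 (-0.29, limma adjusted p = 0.0162) and DNAJC8 (0.25, adjusted p = 0.0292) over both treatments and HSPA2 in untreated cells (-0.76, adjusted p = 0.0437). It gave 0 members in every irradiation comparison, as did every other alternative. Over all genes, irradiation gave 2 calls with eIF4E under array quality weights, and 1 call with IgG without a variance trend, 1 as the mean of probe sets and 1 without untreated IgG replicate 1; the cause was not tested.

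Direction turned only in members that had not passed. As the mean of probe sets, DNAJA1 was at -0.17, DNAJC10 at -0.13, DNAJC7 at 0.04 and DNAJB12 at 0.09. DNAJB12 was also at 0.08 with quantile normalization, 0.06 with median centring, and -0.13 to 0.05 (0.003, 0.02 and 0.05 where it turned) without single arrays, and HSPA4 was at 0.03 with centring and -0.20 to 0.05 (0.01, 0.02 and 0.05 where it turned) without single arrays. Without replicate 1 of every group DNAJC11 was at 0.01 and HSPE1 at -0.02. HSF1 in irradiated cells was at -0.0012 with a constant of 64 and -0.13 to 0.25 (-0.13, -0.12, -0.11 and -0.05 where it turned) without single arrays. Precision is limited by 3 arrays a group, and the IgG signals of BAG4 and DNAJC4 ran from 37 to 86.1, where genes listed as not expressed in this line had array medians of 5.26 to 25.3 with IgG.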
